A study of Mus musculus with 32 samples.

Results

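The genes studied were Runx1, Runx2 and Runx3, the mouse RUNX transcription factors, described by the open chromatin called in and around them in dendritic cells (DC) of the skin-draining lymph node. A peak belonged to one of these genes if its region's centre lay inside the gene body or, where it lay in no protein-coding gene, if this gene was the nearest and no more than 50 kb away. The peak lists of all 32 libraries were merged into 90465 consensus regions, each a stretch covered by peaks of at least 3 libraries. Of these regions, 109 belonged to a RUNX gene: 33 to Runx1, 49 to Runx2 and 27 to Runx3. The genes were chosen by the calls at Runx2, known from these lists to be more frequent in migratory than in resident DC, and the regions by presence in at least 3 libraries. The lists held 2229 peaks at the 3 genes in all, between 40 and 100 per library with a median of 70.

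Each library was an ATAC-seq library, in which a transposase cuts open chromatin, from 1 sorted DC subset. The labels name 5 subsets: the resident conventional types cDC1 and cDC2, and the migratory populations migDC1, migDC2 and double-negative (DN) migDC. In 28 libraries all cells carried a floxed Ifngr1 gene (IFNgr1flfl), which encodes a chain of the interferon-gamma receptor, either without Cre (CD11cCREneg) or with Cre driven by the CD11c promoter (CD11cCREpos). CD11c is made by DC and by some other myeloid cells, so deletion follows CD11c promoter activity rather than a subset. There were 3 libraries per subset and Cre genotype, and 2 per genotype for migDC1. The other 4 libraries came from migDC2 of mice without the floxed design, 2 labelled WT and 2 labelled IFNgr1-/-, in which the receptor is missing from every cell. Ages, and whether libraries came from separate animals, are not given in the labels used here, so every p-value measures only the spread between libraries, which may be technical.

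RUNX proteins bind DNA through the runt domain, together with the partner CBFB, and can activate or repress transcription depending on the co-factors they recruit. RUNX1 is required for the first blood stem cells, RUNX2 is the master regulator of bone formation and also acts in plasmacytoid DC, and RUNX3 is required for Langerhans cells and shapes the response of DC to TGF-beta. Each of the 3 genes is known for a distal promoter and a proximal one, which give proteins with different starts.

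The distal start windows are shown because all of them hold the same pair of RUNX sites. Each window is the RefSeq promoter sequence of build GRCm38.p6, from 250 bases before the start to 50 after it, written 5′ to 3′ along the gene. Capitals mark matches to the RUNX core TGTGGT on either strand, so ACCACA on the strand shown.
Runx1 distal, chr16:92826025-92826324, minus strand: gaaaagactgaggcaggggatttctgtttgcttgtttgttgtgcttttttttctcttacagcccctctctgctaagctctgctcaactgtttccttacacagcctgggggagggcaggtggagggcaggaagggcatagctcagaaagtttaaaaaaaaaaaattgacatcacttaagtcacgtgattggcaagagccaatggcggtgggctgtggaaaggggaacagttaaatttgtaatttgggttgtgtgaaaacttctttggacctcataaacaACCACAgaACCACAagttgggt
Runx2 distal, chr17:44814578-44814877, minus strand: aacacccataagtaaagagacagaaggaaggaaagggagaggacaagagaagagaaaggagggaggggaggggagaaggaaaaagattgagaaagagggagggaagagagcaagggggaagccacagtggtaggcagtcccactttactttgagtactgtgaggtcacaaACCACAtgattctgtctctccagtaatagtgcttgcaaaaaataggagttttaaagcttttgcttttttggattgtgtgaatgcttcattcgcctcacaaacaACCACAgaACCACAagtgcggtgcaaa
Runx3 distal, chr4:135120395-135120694, plus strand: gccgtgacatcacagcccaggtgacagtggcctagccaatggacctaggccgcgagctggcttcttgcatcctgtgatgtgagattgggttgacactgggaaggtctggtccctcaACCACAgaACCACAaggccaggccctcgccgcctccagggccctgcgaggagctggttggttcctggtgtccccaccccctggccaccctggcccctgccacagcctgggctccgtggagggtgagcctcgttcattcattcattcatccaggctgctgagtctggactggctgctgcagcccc

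An identical run of 18 bases with 2 RUNX cores, caACCACAgaACCACAag, occurred in each of the 3 windows. It began 26 bases after the Runx1 start, 21 bases after the Runx2 start and at position -136 from the Runx3 start. Of 32619 RefSeq promoter windows of this length, 4 held the run, and the other one was that of Gm16225, a gene whose window overlaps the Runx3 window. At least 1 RUNX core was found in 16.6% of all windows, at least 2 in 1.78% and at least 3 in 0.184%. The Runx1 and Runx3 distal windows held 2 cores each and the Runx2 distal window held 3. The proximal start windows of Runx1 (chr16:92697280-92697579) and Runx3 (chr4:135152295-135152594) held 0 cores, and their G and C content was 69.0% and 77.3%, against 45.0% and 63.7% in the distal windows of the same genes. The promoter table used here lists 1 start for Runx2. These matches describe the sequence only.

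The lists differed in length, which bears on every count below. They held 32649 to 74975 peaks: 38455 to 56115 in cDC2, 50682 to 69544 in cDC1, 44991 to 74975 in the floxed migratory libraries and 32649 to 42446 in the germline libraries. No read counts come with the lists, so the depth is unknown, and a region without a call may be closed or under the authors' peak threshold. The overlap of called regions between libraries of 1 group (Jaccard index, regions called in both over regions called in either) was 0.678 to 0.893, and 0 lists were identical. All 12 resident libraries have plain-numbered titles, while 12 of the 16 floxed migratory ones have titles with a letter. What the letter stands for is not given, and for those 12 libraries migration and title series cannot be told apart, so values from the 4 plain-numbered migratory libraries are given beside the results. Of the 16 regions at Ifngr1, the targeted gene, 14 of 14 Cre-negative and 14 of 14 Cre-positive libraries had a call at chr10:19591054-19592900, as did all 4 germline libraries. Which part of the gene is removed is not given, so calls there do not check the genotype.

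Genes known as markers were read by their called regions. The cDC1 list had 58 to 79 of its 94 regions called in the cDC1 libraries and 29 to 50 in the cDC2 libraries, and the migratory DC list had 28 to 50 of 54 in the migratory libraries against 17 to 27 in the resident ones. The cDC2 list did not set the resident types apart, with 25 to 39 of 60 in cDC1 and 23 to 42 in cDC2. Lists of other cells also differed between resident and floxed migratory libraries: B cell genes had 2 to 11 against 6 to 23 of 28 regions, T cell genes 5 to 14 against 9 to 15 of 20, and Langerhans cell genes 9 to 18 against 15 to 29 of 33. Plasmacytoid DC genes had 14 to 25 of 35 regions in the resident libraries, 17 to 27 in migDC1 and migDC2, and 27 to 34 in DN migDC. Natural killer and innate lymphoid cell genes had 11 to 22 against 15 to 28 of 33, and monocyte and macrophage genes 9 to 17 against 5 to 15 of 19. Of the defining genes, Cd3g had no called region in any resident library and Ncr1 had none in cDC2. In the migratory types Cd79b had no call in migDC1 or migDC2, Cd79a none in migDC1 and Cd3g none in migDC2. No region was assigned to 1 of the 5 plasmacytoid DC genes. The part of other cells in the RUNX results was not tested.

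Runx1 spans 225 kb of chromosome 16 (16:92601466-92826074), Runx2 319 kb of chromosome 17 (17:44495987-44814797) and Runx3 57.3 kb of chromosome 4 (4:135120645-135177990), all in build mm10. Exons and introns were not told apart. Runx1 held 23 regions in its body and 10 outside it, Runx2 40 and 9, and Runx3 15 and 12. Of the Runx2 body regions, 4 also lie in Supt3, a gene that overlaps its start. Per length, Runx3 was the densest, with 2.62 body regions per 10 kb, against 1.25 for Runx2 and 1.02 for Runx1. Among 9522 genes with at least 3 regions, 29 had more regions than Runx2, 115 had more than Runx1 and 213 had more than Runx3. All 32 libraries had a call in 8 Runx1, 9 Runx2 and 10 Runx3 regions, 27 of 109 in all. Among all regions of the genome, 23.3% were called in every library. Just inside the limit of 3 libraries lay 5 RUNX regions, and 16 more were called in exactly 2 libraries and left out. The farthest regions inside the 50 kb limit lay 47.9, 46.7 and 47.0 kb from the ends of Runx1, Runx2 and Runx3, and the nearest left out lay 78.1, 59.3 and 50.6 kb away. Which gene a region regulates cannot be read from distance, and fewer open cells cannot be told apart from less access per cell.

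**Figure D1:**
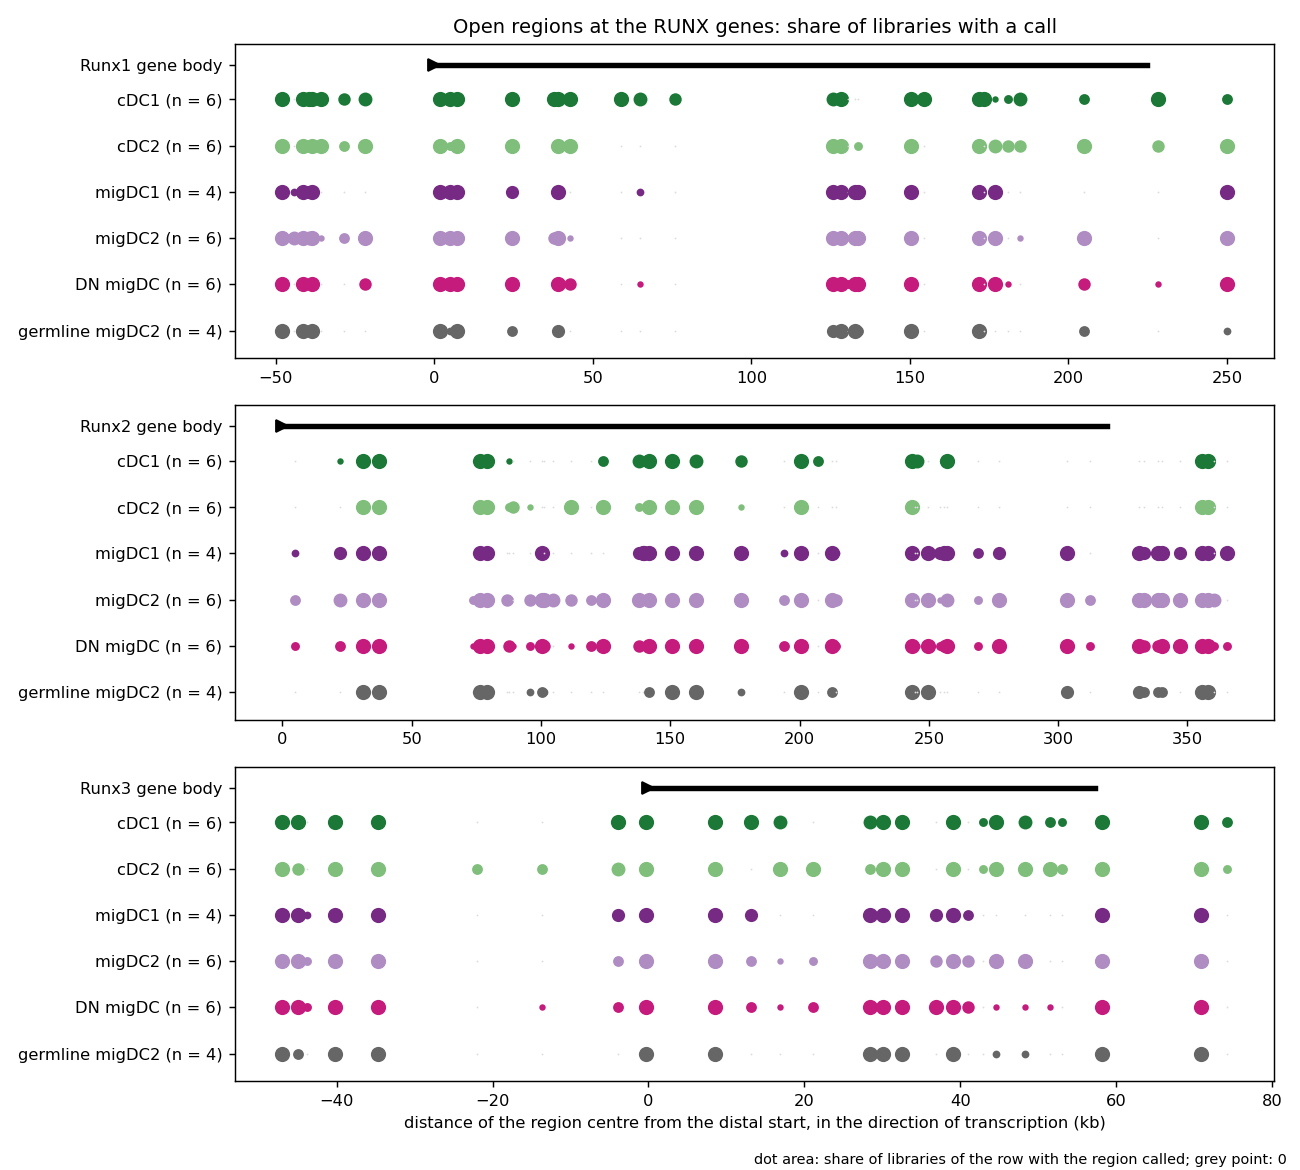
Each dot is a consensus region, placed by the distance of its centre from the distal start of Runx1, Runx2 or Runx3 in kb, along the gene. Dot area is the share of a subset's libraries with a call (n given per row, a grey point where none had one), and the black bar is the gene body. Along Runx2 and beyond its far end, the 3 floxed migratory rows have dots at 6 positions called in 16 of 16 libraries where both resident rows have none.

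The distal Runx1 start lay in open chromatin in all 32 libraries, in the widest Runx1 region (chr16:92821519-92826799, 5281 bases). The peak over the start window was 726 to 5239 bases wide in cDC1 (median 1852), 1719 to 5390 in cDC2 (median 3391) and 519 to 1803 in the 16 floxed migratory libraries (median 1087). Resident and migratory widths overlapped. The 4 plain-numbered migratory libraries had 660 to 1803 bases (median 1496). Within their own lists, ordered by the authors' signal in column 7, these peaks stood in the top 6.47% at the resident median and the top 21.8% at the migratory median, as a description, since ranks from lists of different lengths show no change.

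The proximal Runx1 start, 128745 bases downstream of the distal one, carried peaks of similar width in both sets. They were 1809 to 2647 bases wide in the resident libraries and 1636 to 2679 in the migratory ones. The peak at this start was among the strongest of each list, in the top 3.27% at the median over all libraries and never below the top 8.58%. At Runx3 the arrangement was similar: the distal start had a peak of 463 to 1337 bases (median 949) and the proximal start, 31.9 kb downstream, one of 576 to 4252 bases (median 2579), called in all 32 libraries. At the proximal Runx3 start the strongest peak touching the window was 582 to 2422 bases wide in migDC1 (median 1712) and 576 to 2489 in the germline libraries (median 776), while all 12 resident libraries had at least 2470 bases and all migDC2 and DN migDC libraries of the floxed design at least 2525. The widest peak in the region over this start (chr4:135151640-135154626) was 1641 to 2489 bases in the germline libraries (median 1735) and at least 1132 in the floxed migratory ones. In some of these libraries the region thus held more than 1 peak, and a narrow peak at the window does not mean a narrow open region.

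At the Runx2 distal start the window had a peak in 0 of 32 lists, although it carries the RUNX pair of the other distal windows. The nearest region to it lay 4.76 kb inside the gene and was called in 6 libraries, all migratory. The first region called in all 32 lay 31.3 kb in. Both of these regions also lie in Supt3, which overlaps the Runx2 start. The widest Runx2 region (chr17:44733938-44736826, 2889 bases) lay 79.2 kb in and was called in all 32, with a widest peak of 1061 to 2814 bases in the resident libraries and 803 to 2865 in the migratory ones.

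**Figure D2:**
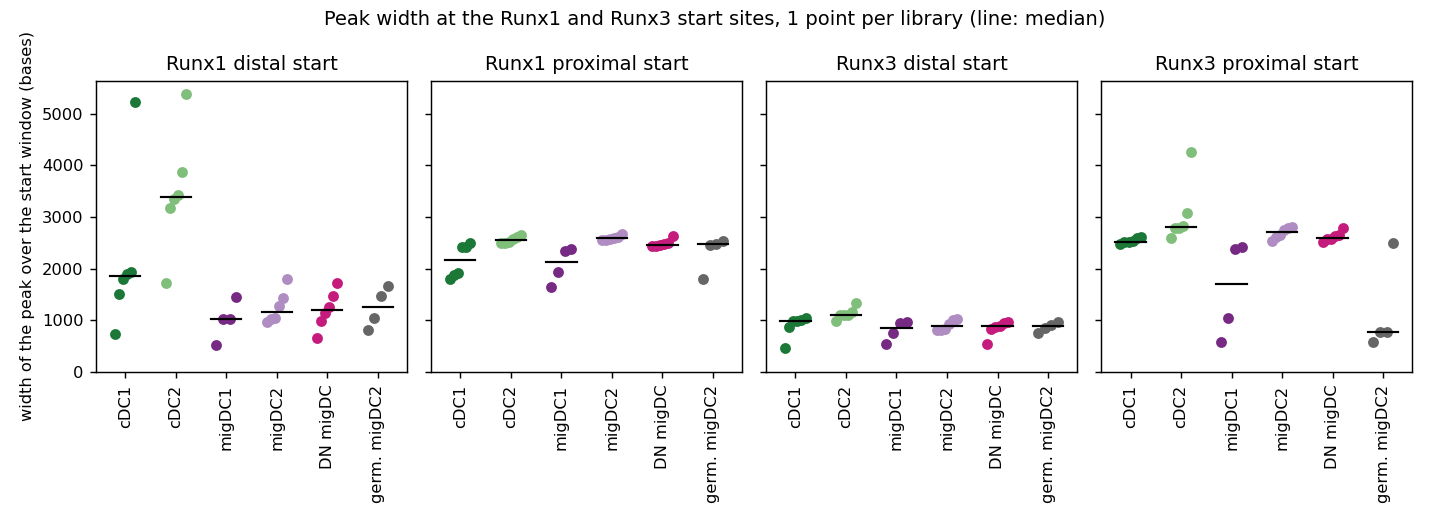
Width in bases of the peak over the distal and proximal start windows of Runx1 and Runx3, 1 point per library by subset, with a line at the median. The distal Runx1 start reaches 5239 bases in cDC1 and 5390 in cDC2 and stays at or below 1803 in the floxed migratory libraries; the Runx2 distal start is not drawn because no list had a peak there.

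The main comparison set the 16 floxed migratory libraries against the 12 resident ones. Runx2 had 12 to 20 of its 49 regions called in the resident libraries (median 15.5) and 23 to 42 in the migratory ones (median 32), so that the groups did not overlap. The share of all genes whose groups do not overlap is not given here. The means were 15.3 ± 2.27 (SD, n = 12) and 32.1 ± 5.81 (n = 16). Peaks covered 11.5 ± 2.25 kb of Runx2 in the resident libraries and 20.7 ± 3.26 kb in the migratory ones. That Runx2 regions were called more often in migratory DC was known when the genes were chosen. All values of Runx2 in this contrast are therefore a description and carry no test. The 4 plain-numbered migratory libraries had 23 to 31 Runx2 regions, still above the highest resident library. When each list was reduced to its 38455 strongest peaks, the length of the shortest floxed list, the difference in regions was 7.56 in place of 16.7.

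Of the 49 Runx2 regions, 25 had a call in 0 of 12 resident libraries, and 6 of these had one in 16 of 16 migratory libraries. The share of all regions without a resident call is not given here. Over all regions, 3.55% had that pattern of 16 and 0. All 9 intergenic Runx2 regions lay past the gene's far end: 2 were called in all 32 libraries and the other 7 in no resident library. The 6 regions with 16 of 16 lay 100, 213, 250, 303, 331 and 340 kb from the distal start, the last 2 in that intergenic space. One at chr17:44564667-44565551, 885 bases wide, was also called in all 4 germline migDC2 libraries, and each of the other 5 in 2 or 3 of the 4. Another region at 277 kb had a call in 15 migratory libraries and in 0 resident ones.

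Runx1 had fewer regions and bases called in the migratory libraries. They had 15 to 23 of its 33 regions called (median 19.5) and the resident ones 16 to 29 (median 23.5), with means of 19.6 ± 2.42 and 22.9 ± 3.68. The groups overlapped, and the difference of -3.29 regions passed the test (exact permutation within genotype, two-sided, adjusted over 9522 genes, p = 0.0255). Within plain-numbered titles it was -1.42 and did not pass (adjusted permutation p = 0.760). It also did not pass without Cre-positive cDC1 replicate 1 (-2.69, adjusted permutation p = 0.0539). With only peaks of signal 400 or more it was -1.10 (adjusted permutation p = 0.477), and with all RefSeq genes in the assignment -2.77 (adjusted permutation p = 0.0517). Covered bases separated the groups more: 18.4 to 28.2 kb in the resident libraries and 9.94 to 18.5 kb in the migratory ones, with 1 resident library below the highest migratory one, and means of 22.9 ± 2.96 and 15.6 ± 2.29 kb (adjusted permutation p = 2.68e-06, and 0.0277 within plain-numbered titles). Over all genes, 30.3% passed with more and 13.9% with fewer regions in the migratory libraries (44.2% in either direction), and 26.1% passed with more and 22.7% with fewer bases.

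The permutation test of single regions takes those with 3 or more libraries on either side (call or no call). Of 22 Runx1 regions tested, 3 had more calls in the migratory libraries and 7 had fewer, beside 23.5% and 14.8% of all 61445 regions tested. One region 133 kb from the distal start, at chr16:92693064-92693898 and past the proximal start, was called in 16 of 16 migratory, 0 of 12 resident and 4 of 4 germline libraries (adjusted permutation p = 2.07e-06). Its neighbour at 134 kb was called in 16 of 16 and 2 of 12 (adjusted permutation p = 9.5e-05). In the other direction, a region at -35.8 kb, upstream of the gene, had a call in all 12 resident libraries and in 1 migratory one (adjusted permutation p = 1.08e-05). A region at 228 kb, past the far end, was called in 10 of 12 and 1 of 16 (adjusted permutation p = 0.000532), and one at 185 kb in 9 of 12 and 1 of 16 (adjusted permutation p = 0.0018). The regions called more often thus included a neighbouring pair just past the proximal start, and those called less often included one outside each end of the gene.

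Runx3 had fewer bases covered in the migratory libraries, while its difference in the number of regions missed the threshold in the main test. The migratory libraries had 12 to 22 of its 27 regions (median 16) and the resident ones 15 to 23 (median 18.0), and the difference of -2.35 did not pass (adjusted permutation p = 0.0703). It was -0.167 within plain-numbered titles, and it passed at equal list length with -3.96 (adjusted permutation p = 3.46e-06). It passed too with only peaks of signal 400 or more (-2.60, adjusted permutation p = 0.0222) and with all RefSeq genes in the assignment (-2.04, adjusted permutation p = 0.0356). It also passed, with -2.74 to -2.62, when any 1 of 4 libraries was left out: Cre-positive cDC1 replicate 2, Cre-positive cDC2 replicate 2, Cre-negative migDC2 replicate 3 or Cre-positive DN migDC replicate 1. Peaks covered 18.2 to 43.2 kb in the resident libraries and 10.7 to 24.1 kb in the migratory ones. The means were 30.1 ± 7.94 and 18.0 ± 3.17 kb (adjusted permutation p = 5.08e-05), but within plain-numbered titles the difference of -8.72 kb did not pass (adjusted permutation p = 0.164).

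Of 16 Runx3 regions tested, 2 were called more often in the migratory libraries and 6 less often. A region at 36.9 kb, past the proximal start, had a call in 13 of the 16 migratory libraries and in 0 resident ones (adjusted permutation p = 0.000194), and one at 41.0 kb in 10 of 16 and 0 of 12 (adjusted permutation p = 0.0052). Neither was called in a germline library. Regions at 16.9 and 51.5 kb were called in 11 and 9 of 12 resident libraries and in 2 and 1 of 16 migratory ones (adjusted permutation p = 0.000557 and 0.002). A region at 44.6 kb was called in all 12 resident libraries and in 6 of 6 migDC2, but in 1 of 6 DN migDC and 0 of 4 migDC1.

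Over Runx1 and Runx3 together, leaving out Runx2, 5 of 38 tested regions had more calls in the migratory libraries (13.2%) and 13 had fewer (34.2%). Within plain-numbered titles the counts were 5 and 1 of 32, beside 21.3% and 2.36% of all regions at that setting. At equal list length they were 3 and 13 of 26, beside 27.4% and 32.5%.

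**Figure D3:**
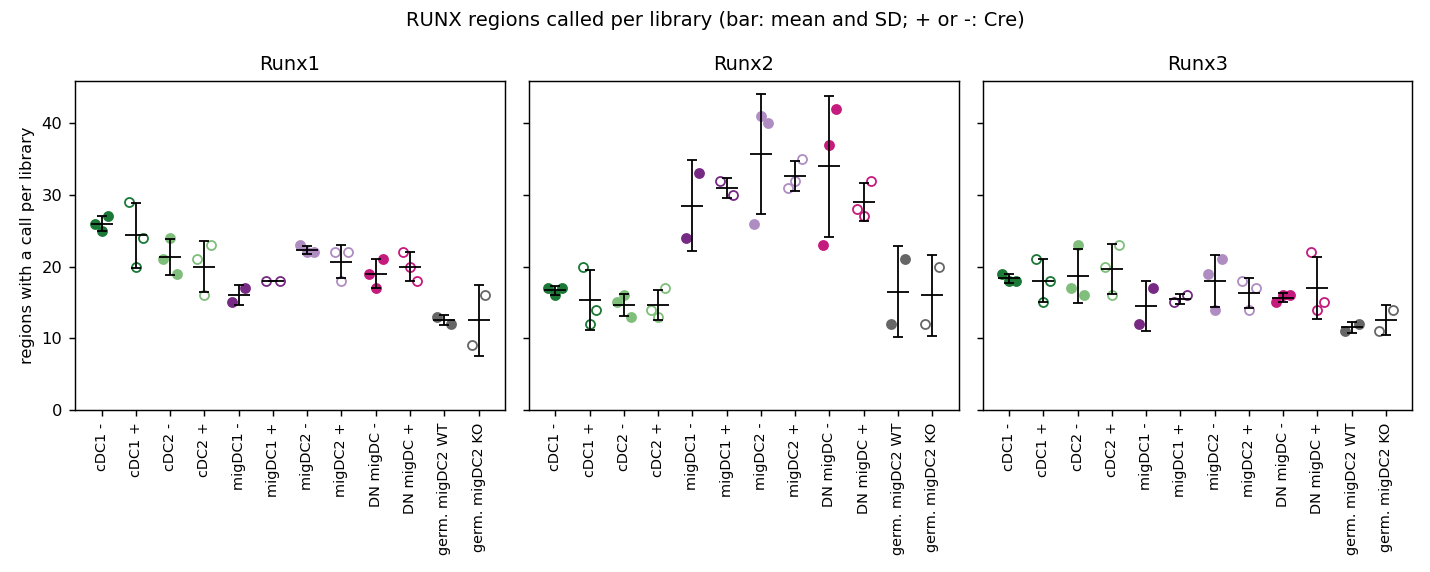
Number of consensus regions called per library at Runx1 (of 33), Runx2 (of 49) and Runx3 (of 27), by subset and genotype, with the mean and SD as bars. Filled points are Cre-negative or WT libraries and open points Cre-positive or IFNgr1-/- ones; at Runx2 the floxed migratory libraries, 23 to 42, all lie above the resident ones, 12 to 20.

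Peak width was also compared at the regions open in every library. Over whole lists, the 90th percentile of peak width had a median of 1518.5 bases in the resident and 1331.85 in the floxed migratory libraries. Among the 27 RUNX regions called in all 32 libraries, the resident median width was above the migratory median in 17, beside 63.6% of the 21040 such regions in the genome. All 12 resident peaks were wider than all 16 migratory ones at 2 of the 27, both upstream of Runx1 (0.299% of all such regions). At -47.9 kb (chr16:92873533-92874430) the widest peak was 731 to 1146 bases in the resident libraries and 285 to 718 in the migratory ones, and at -41.5 kb (chr16:92867010-92868089) it was 877 to 1113 and 329 to 718. The reverse was seen at 1 of the 27, past the far end of Runx2 (0.746% of all such regions). There, at chr17:44455596-44457427, 358 kb from the distal start, the peak measured 189 to 1064 bases in the resident libraries (median 453) and 1589 to 1847 in the migratory ones (median 1648). This region was called everywhere, so a count of calls does not show the difference. These widths carry no test.

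Runx3 had the widest peaks of the 3 genes, in the resident libraries and past its far end. In the region at 70.9 kb (chr4:135188826-135194227) the widest peak was 1275 to 11639 bases in the resident libraries (median 4956) and 747 to 1579 in the migratory ones (median 1232), so the groups overlapped at their edges. In the region over the gene's far end at 58.2 kb (chr4:135174637-135182975, 8339 bases) it was 751 to 9651 and 731 to 2638. Inside the gene, at 39.1 kb, it was 973 to 2533 (median 2049) and 860 to 1529 (median 1043). By contrast, the proximal start region of Runx3 had medians of 2601 and 2592 bases and that of Runx1 had 2494 and 2481.

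**Figure D4:**
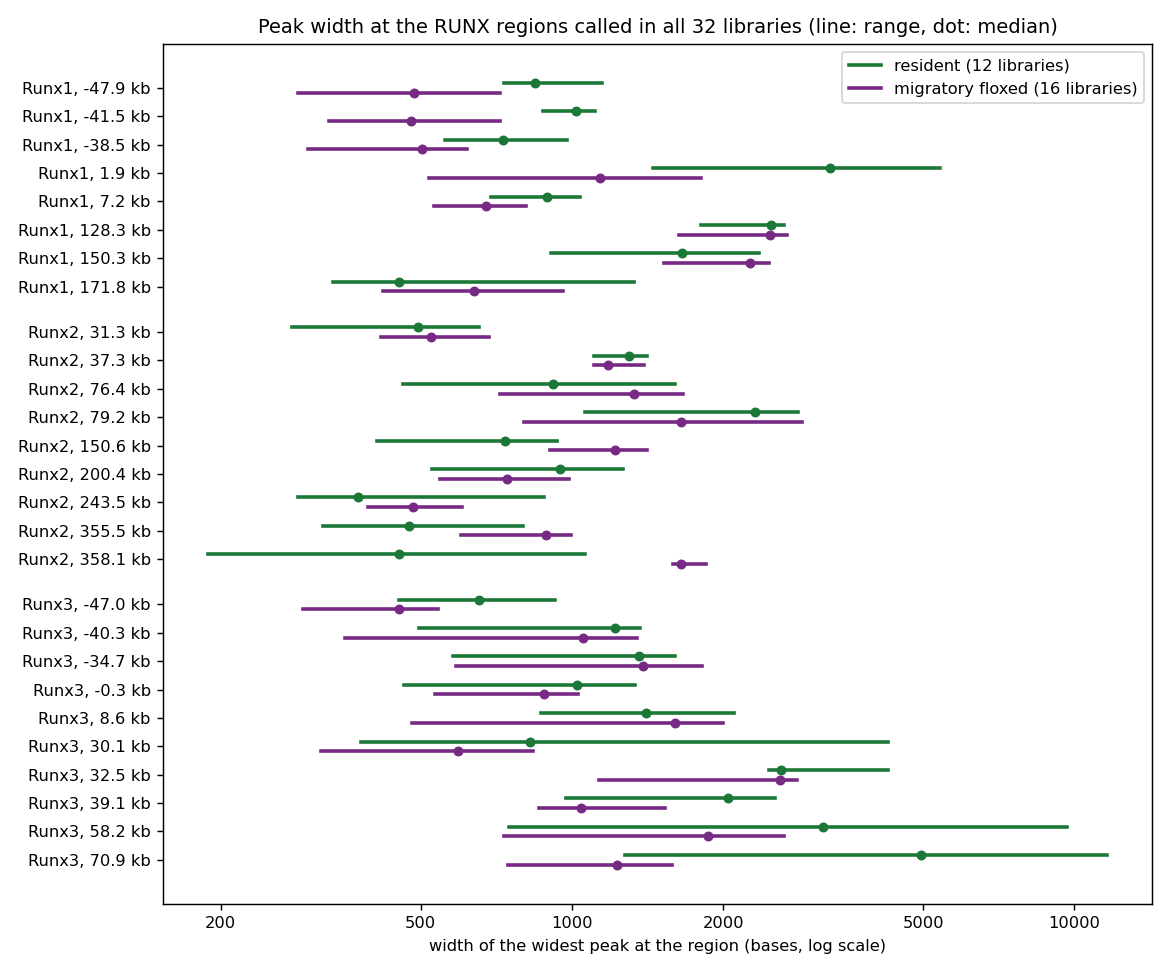
Width in bases (log scale) of the widest peak at each of the 27 RUNX regions called in all 32 libraries, labelled by gene and distance from the distal start. Lines span the lowest to the highest library and dots mark the median, for 12 resident and 16 floxed migratory libraries; the ranges separate at Runx1 -47.9 and -41.5 kb (resident wider) and at Runx2 358.1 kb (migratory wider).

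Within the resident types, 31 RUNX regions could be tested between cDC2 and cDC1. Of these, 2 were called more often in cDC2 and 6 less often, beside 2.16% and 13.4% of all regions tested. Each of these 8 was called in 6 of 6 libraries of one type and 0 of 6 of the other, which gives the smallest p that 400 permutations allow, 0.005, and an adjusted p of 0.0321. At Runx1, 4 regions inside the gene, at 37.6, 58.7, 154 and 173 kb, were called in cDC1 and not in cDC2. The last 3 had no call in any migratory library either. At Runx2, a region at 257 kb was called in cDC1 and not cDC2, and in 15 of 16 migratory libraries, while one at 112 kb was called in cDC2 and not cDC1. At Runx3, a pair of regions in the first part of the gene showed opposite patterns: that at 13.1 kb was called in cDC1 and that at 21.1 kb in cDC2.

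The number of Runx1 regions was 20 to 29 in cDC1 (mean 25.2 ± 3.06, n = 6) and 16 to 24 in cDC2 (20.7 ± 2.88), and the difference of -4.50 did not pass (adjusted permutation p = 0.122, and 0.0464 without Cre-positive cDC1 replicate 2). cDC2 lists were shorter, and at equal list length the difference was 0.833 in the other direction, with 10 RUNX regions then called more often in cDC2 and 4 less often. Of all regions tested at that setting, 20.7% were called more often in cDC2 and 25.6% less often. Runx2 had 12 to 20 and 13 to 17 regions, and Runx3 15 to 21 and 16 to 23; neither difference passed (adjusted permutation p = 0.659 and 0.838). Over all genes, 0.966% passed with more regions in cDC2 and 14.3% with fewer, and 1.89% and 12% on bases. Differences in covered bases did not pass at any of the 3 genes (adjusted permutation p = 0.526, 0.870 and 0.505).

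Each migratory type was then set against the resident type of the same name. Between migDC2 and cDC2, 2 of the 23 Runx1 and Runx3 regions tested were called more often in migDC2 and 4 less often, beside 37.2% and 4.02% of all regions. Runx2 had 13, 13, 14, 15, 16 and 17 regions called in the cDC2 libraries and 26, 31, 32, 35, 40 and 41 in the migDC2 ones, a description for the reason given above. Runx1 had 4.66 kb fewer bases covered in migDC2, 17.3 ± 1.61 against 22.0 ± 2.88 in cDC2 (adjusted permutation p = 0.0175). Runx3 had 12.4 kb fewer, 20.1 ± 3.02 against 32.5 ± 9.39 (adjusted permutation p = 0.0405). Over all genes, 29.1% passed with more and 1.32% with fewer regions in migDC2, and 33.1% with more and 3.95% with fewer bases. Neither RUNX difference passed within the 2 migDC2 and 6 cDC2 libraries of the plain-numbered series (adjusted permutation p = 0.344 and 0.494), where the smallest p possible is 0.0625 and 0 RUNX regions passed. Both also failed to pass when 1 of several single libraries was left out: any of the 6 migDC2 libraries for both genes, and either of 2 Cre-negative cDC2 libraries for Runx3. Their adjusted p then lay between 0.0504 and 0.0959.

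Between migDC1 and cDC1, 2 of the 23 Runx1 and Runx3 regions tested were called more often in migDC1 and 8 less often, beside 18.5% and 16.8% of all regions. Runx1 accounted for 7 of the 8 lower calls and both higher ones. Its regions numbered 15, 17, 18 and 18 in migDC1 against 20, 24, 25, 26, 27 and 29 in cDC1 (difference -8.17, exact permutation, adjusted p = 0.0428). It had 10.8 kb fewer bases covered in migDC1 than in cDC1 (adjusted permutation p = 0.0467). Over all genes, 8.79% passed with more and 14.6% with fewer regions in migDC1, and 7.41% with more and 14% with fewer bases. Runx2 had 24, 30, 32 and 33 regions in migDC1 and 12, 14, 16, 17, 17 and 20 in cDC1, a description for the reason given above. Runx3 covered 14.9 ± 2.77 kb in migDC1 and 27.6 ± 6.0 kb in cDC1, which did not pass (adjusted permutation p = 0.0661). This comparison allows no p below 0.01, and with any 1 of its 10 libraries left out no gene-level difference passed. At equal list length the Runx1 difference was -2.75 regions and did not pass (adjusted permutation p = 0.127). With any 1 of the 4 migDC1 libraries left out 0 RUNX regions passed. Without Cre-positive cDC1 replicate 2 the lower calls numbered 13, with Runx2 counted. All migDC1 libraries have lettered titles and all cDC1 libraries plain-numbered ones, so this comparison has no value within one title series.

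Among the migratory types, 4 Runx2 regions were called in all 4 migDC1 and in no migDC2 library, at 139.4, 139.8, 256 and 365 kb. They were called in 0, 1, 4 and 2 of 6 DN migDC libraries, and only that at 256 kb was called in resident libraries, 2 of 6 cDC1. Runx2 regions at 101 and 124 kb showed the reverse, with 6 of 6 migDC2 and 0 of 4 migDC1 libraries, as did Runx1 regions at -21.9 and 205 kb and Runx3 regions at 44.6 and 48.3 kb. The share of all regions with either pattern is not given here. None of the 3 comparisons among the migratory types gave a RUNX region past the threshold, and none gave a region anywhere in the genome (0% of 20987, 22285 and 21163 tested). At an unadjusted permutation p under 0.05, 10 of 30 RUNX regions tested differed between migDC1 and migDC2, beside 6400 of all 20987. Between DN migDC and migDC2 there were 4 of 29, beside 1377 of 22285. Between DN migDC and migDC1 there were 2 of 24, beside 4295 of 21163. The smallest adjusted p was 0.0594, 0.324 and 0.0997. At equal list length 2 of 8 Runx2 regions tested passed as more often called in migDC1 than in migDC2, and 0 of 4 at Runx1 and Runx3. Of all 11271 regions tested at that setting, 16% passed in that direction and 11.5% in the other.

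Ordered by covered bases, Runx2 stood at 22.8 ± 2.88 kb in migDC2, 20.1 ± 2.90 in DN migDC, 18.5 ± 3.02 in migDC1, 11.7 ± 1.86 in cDC2 and 11.3 ± 2.75 in cDC1. The neighbouring steps from migDC2 to DN migDC, from DN migDC to migDC1 and from cDC2 to cDC1 did not pass (adjusted permutation p = 0.297, 0.651 and 0.870). Runx1 had the resident types first, with 23.8 ± 3.0 kb in cDC1, 22.0 ± 2.88 in cDC2, 17.3 ± 1.61 in migDC2, 15.6 ± 1.02 in DN migDC and 13 ± 2.32 in migDC1. Over all genes, 1.68% passed with more and 22.3% with fewer bases in migDC1 than in migDC2. No step of Runx1 among the migratory types passed (adjusted permutation p = 0.178 and 0.0804). Runx3 ran from 32.5 ± 9.39 kb in cDC2 and 27.6 ± 6.0 in cDC1 to 20.1 ± 3.02 in migDC2, 18.1 ± 1.73 in DN migDC and 14.9 ± 2.77 in migDC1, with no step among the migratory types past the threshold (adjusted permutation p = 0.391 and 0.108).

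**Figure D5:**
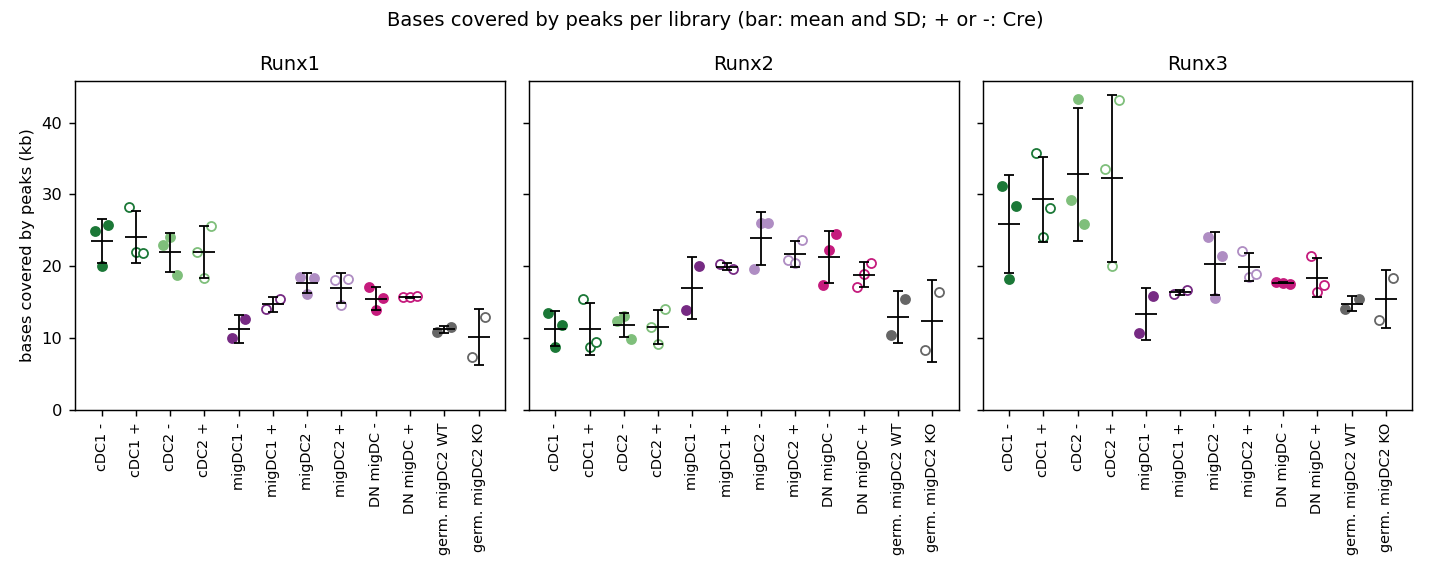
Bases covered by peaks (kb) per library at Runx1, Runx2 and Runx3, by subset and genotype, with the mean and SD as bars. Filled points are Cre-negative or WT libraries and open points Cre-positive or IFNgr1-/- ones; Runx1 and Runx3 are highest in cDC1 and cDC2 (up to 28.2 and 43.2 kb) and Runx2 in the floxed migratory libraries (up to 26.1 kb).

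Loss of Ifngr1 through CD11c-Cre was compared within subsets, over 14 Cre-positive and 14 Cre-negative libraries. None of the 76 RUNX regions tested differed, and 0 had an unadjusted permutation p under 0.05. Over the genome 0% of 61445 regions passed, and 170 had an unadjusted p under 0.05. Runx1 had 20.8 ± 3.31 regions in Cre-positive and 21.3 ± 3.58 in Cre-negative libraries, Runx2 24.1 ± 8.56 and 25.7 ± 10.8, and Runx3 17.4 ± 3.01 and 17.2 ± 2.81. The differences of -0.500, -1.64 and 0.214 regions did not pass (adjusted permutation p = 1 for each), nor did those of 0.516, -0.667 and 1.11 kb in covered bases (adjusted permutation p = 1 for each). The smallest p this design allows is 2.08e-06, and 0.0315% of all genes passed on either count.

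Within one subset, 3 libraries against 3 were given as values only. In migDC2, Runx2 had 26, 40 and 41 regions in the Cre-negative libraries and 31, 32 and 35 in the Cre-positive ones. In DN migDC it had 23, 37 and 42, and 27, 28 and 32. The Cre-negative values spread wider in both subsets and enclose the Cre-positive ones. In cDC1 it had 16, 17 and 17 regions without Cre and 12, 14 and 20 with it, and in cDC2 13, 15 and 16 without Cre and 13, 14 and 17 with it. In migDC1 it had 24 and 33, and 30 and 32.

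The germline libraries had fewer RUNX calls than the floxed migDC2 libraries, in shorter lists. Runx1 had 12 and 13 regions in the WT libraries and 9 and 16 in the IFNgr1-/- ones, Runx2 had 12 and 21 against 12 and 20, and Runx3 had 11 and 12 against 11 and 14. The genotypes overlapped at each gene, and every value was at or below the lowest floxed migDC2 library. All 4 libraries had a call in the Runx1 region at 133 kb and in the Runx2 region at 250 kb, both called in all floxed migratory and in no resident library.

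Other genes of the RUNX pathway were counted in the same way, from a list of 40 partners, co-factors and known targets. Cbfb, which encodes the partner CBFB, had 3 regions, of which 2 could be tested: 0 had more calls in the migratory libraries and 1 had fewer. Among co-factors, 26 of 88 tested regions were called more often and 7 less often (29.5% and 7.95%, beside 23.5% and 14.8% of all regions). Cbfa2t3, a co-repressor of the ETO family, had 5 of 18 higher and 0 lower, Tle3, a Groucho co-repressor, had 4 of 14 higher and 1 lower, Smad3, which carries TGF-beta signals, had 4 of 11 higher and 1 lower, and Kmt2a, a histone methyltransferase, had 3 of 6 higher and 0 lower. Kat6a, an acetyltransferase, had 1 higher and 2 lower of 6.

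Among known target genes, 23 of 103 tested regions were called more often and 15 less often (22.3% and 14.6%), close to all regions. Bcl2, a survival factor, had 5 higher and 2 lower of 15, Ccr7, the chemokine receptor of DC migration, 3 higher and 0 lower of 8, Spi1, which encodes PU.1, 3 higher and 1 lower of 6, and Itgae, which encodes CD103, 3 higher and 2 lower of 11. On the lower side, Itgax, which encodes CD11c, had 3 of 6 and Itgal, an integrin of leukocyte adhesion, 2 of 3, with 0 higher at either. In the comparison of cDC2 with cDC1, co-factor regions numbered 1 higher and 3 lower of 38 and target regions 1 higher and 6 lower of 56, beside 2.16% higher and 13.4% lower of all regions (2.63% and 7.89% of the co-factor regions, 1.79% and 10.7% of the target regions). Between migDC2 and cDC2, 37.5% of 48 co-factor regions were higher and 4.17% lower, and 31.1% and 4.92% of 61 target regions, beside 37.2% and 4.02% of all regions. Between migDC1 and cDC1, 30.4% of 56 co-factor regions were higher and 8.93% lower, and 15.9% and 21.7% of 69 target regions, beside 18.5% and 16.8%. None passed among the migratory types or between Cre genotypes.

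The percent of a gene's regions called, minus the percent of all regions called in the same library, was compared across the 28 floxed libraries. Over 5772 other genes with at least 5 regions, the pattern most like that of Runx2 was found at Ipo5 (Pearson r = 0.946), Tmem39a (0.937) and Pfkfb3 (0.936). For Runx1 these were Eif4e (0.913), Hfe (0.906) and Btbd16 (0.905), and for Runx3 Tpd52 (0.883), Tmem184b (0.882) and Atg2a (0.875). Between the RUNX genes, r was -0.804 for Runx1 and Runx2, 0.635 for Runx1 and Runx3 and -0.568 for Runx2 and Runx3. The points share libraries and list lengths and fall into resident and migratory sets, so these values describe likeness only.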

How the data were processed

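The data were 32 ATAC-seq peak lists. Per the submitters' processing notes the tools were Bowtie2, deepTools and Genrich and the build mm10; settings and read depth: not given in the sources used here. In the deposited lists, column 7 holds the authors' peak signal (at least 200 in every list), column 8 the −log10 of a p-value and column 5 a score. Column 7 ranked peaks within a list, with column 8 for ties.

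Consensus regions were stretches of at least 100 bases, on chromosomes 1 to 19 and X, covered by peaks of at least 3 libraries. A call needed a peak sharing 50% of the region's or the peak's bases. Genes were RefSeq protein-coding bodies. Calls per region (at least 3 called and 3 missing), and calls and covered bases per gene (at least 3 regions), were compared by exact two-sided permutation of libraries within Cre genotype, or within subset for the Cre comparison, with Benjamini-Hochberg adjustment over all regions or genes and a threshold of 0.05. Python 3.11.15, NumPy 2.4.6 and numba 0.67.0 were used, and the code was tested on simulated data. Alternatives covered list length, overlap, consensus, signal threshold, gene models, title series, replicate block and each library left out.

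The genes and lists were chosen with earlier results of these data known. By rule the text names the RUNX genes, Cbfb, up to 4 listed genes per direction with most regions past the test, the 3 most alike genes, and regions at starts or with the smallest p. Kmt2a, Ccr7, Spi1, the regions compared by width, and other regions given by distance were chosen after their values were seen.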

Additional observations from a re-analysis of the deposited data

How the results depend on the processing

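The lists carry no depth. Counts of RUNX regions below leave out Runx2 unless it is named. Runx2 values for migratory against resident libraries, and for migDC1 against cDC1 or migDC2 against cDC2, are a description and carry no test. A call is a gene-level difference past the threshold, differences are the first group minus the second, and the cause of each change was not tested.

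With each list reduced to its 38455 strongest peaks, 3 of 26 Runx1 and Runx3 regions passed as higher and 13 as lower for migratory against resident. Higher and lower counts were 8 and 4 of 20 for cDC2 against cDC1, and 1 and 2 of 11 for migDC1 against cDC1. For migDC2 against cDC2 they were 3 and 7 of 16. For migDC1 against migDC2, 2 of 8 Runx2 regions were higher, and 0 of 4 at Runx1 and Runx3 passed. Of all regions tested, 27.4% were higher and 32.5% lower for migratory against resident. These shares were 20.7% and 25.6% for cDC2 against cDC1 and 16% and 11.5% for migDC1 against migDC2. Higher and lower shares were 30.1% and 19.5% for migDC1 against cDC1 and 31.7% and 23.8% for migDC2 against cDC2. Calls were gained for Runx3 regions (-3.96, migratory, resident, and -5.5, migDC2, cDC2) and the bases of Runx1 and Runx3 (-3.20 and -3.92 kb, migDC1, migDC2). Runx2 bases differed by 6.45 kb (migDC1, cDC1), a description. The call on Runx1 regions was lost (-2.75, migDC1, cDC1). The direction turned for regions of Runx1 and Runx2 (0.833 and 2, cDC2, cDC1), Runx1 (-2, migDC2, cDC2), Runx2 and Runx3 (2.58 and 0.833, migDC1, migDC2), all 3 genes (-0.0833, -3.25 and -0.833, DN migDC, migDC1) and Runx1 (0.286, Cre), and for bases of Runx1 (0.640 kb, cDC2, cDC1) and Runx2 (-0.511 kb, DN migDC, migDC1).

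With column 7 of at least 400, 5 of 32 Runx1 and Runx3 regions passed as higher and 8 as lower for migratory against resident. Higher and lower counts were 0 and 3 of 24 for cDC2 against cDC1, and 2 and 4 of 15 for migDC1 against cDC1. For migDC2 against cDC2 they were 5 and 2 of 20. Of all regions tested, 26.1% were higher and 14% lower for migratory against resident. For migDC2 against cDC2 these shares were 39.9% and 3.57%. Higher and lower shares were 2.53% and 12.6% for cDC2 against cDC1 and 19.8% and 15.7% for migDC1 against cDC1. Calls were gained for Runx3 regions (-2.60, migratory, resident) and bases (-5.08 kb, migDC1, migDC2). Calls were lost for Runx1 regions (-1.10, migratory, resident), Runx1 regions and bases (-5.5 and -9.76 kb, migDC1, cDC1), and Runx1 and Runx3 bases (-3.78 and -11.3 kb, migDC2, cDC2). Runx2 regions differed by 10.6 (migDC1, cDC1), a description. Regions turned for Runx2 and Runx3 (0.167 and -0.833, cDC2, cDC1) and Runx2 (-0.0833, DN migDC, migDC1).

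With all RefSeq genes in the assignment, the migratory against resident call on Runx1 regions was lost (-2.77) and one on Runx3 regions gained (-2.04). Within plain-numbered titles, 5 of 32 Runx1 and Runx3 regions were higher and 1 lower for migratory against resident. The shares of all regions were 21.3% and 2.36%. Within these titles 0 of 10 were higher or lower for migDC2 against cDC2, beside 0% of all regions. Calls were lost within these titles for Runx1 regions (-1.42) and Runx3 bases (-8.72 kb, migratory, resident), and for Runx1 and Runx3 bases (-3.66 kb and -9.42 kb, migDC2, cDC2). Runx2 differed by 13.8 regions and 8.55 kb (migDC2, cDC2), a description. Runx2 regions turned (0.75, Cre). Within lettered titles Runx3 regions turned (-0.833, Cre). Overlap by 1 base and regions of 2 libraries changed no call and no direction.

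Alternatives chosen after seeing the data were kb at each gene per 10 Mb covered in the library, and Runx2 without its Supt3 overlap. The first gained calls for Runx2 and Runx3 (0.491 and 2.06, cDC2, cDC1) and for Runx3 (-2.24, migDC1, cDC1). It turned Runx1 (0.301, cDC2, cDC1) and Runx2 (0.0339, migDC1, migDC2, and -0.186, DN migDC, migDC1). Runx2 differed by 2.41 (migDC1, cDC1), a description. With the second alternative Runx2 bases differed by 7.12 kb (migDC1, cDC1), a description.

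The replicate block could be set only within lettered titles. Same-numbered libraries had deviations correlated at -0.0315 to 0.191, so the numbers were not taken to pair them. With the block 0 RUNX regions passed, and no gene-level call changed (Runx2 differed by -7.25 regions between migDC1 and migDC2).

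With each library left out in turn, the results whose call, count or direction changed gave these ranges. Counts of RUNX regions in them include Runx2 and are a description. For migratory against resident: Runx1 -3.92 to -2.69 regions, Runx3 -2.74 to -1.93 regions. For cDC2 against cDC1: Runx1 -5.48 to -3.48 regions, Runx2 -0.199 to 1.32 kb. For migDC1 against cDC1: the higher RUNX regions 0 to 13, the lower RUNX regions 0 to 13, Runx1 -9.32 to -7.27 regions, Runx2 12.5 to 15.9 regions, Runx1 -11.4 to -9.91 kb. For migDC2 against cDC2: the lower RUNX regions 4 to 7, Runx1 -0.037 to 1.52 regions, Runx1 -5.42 to -3.81 kb, Runx3 -15.1 to -9.96 kb. For migDC1 against migDC2: Runx1 -5.05 to -3.32 kb. For DN migDC against migDC1: Runx2 -0.846 to 3.91 regions, Runx2 -0.183 to 2.36 kb. For Cre-positive against Cre-negative: Runx3 -0.284 to 0.567 regions.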
